A study of Homo sapiens with 2 samples.

Results

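MYBL2 peaks at lncRNA-only promoters were peaks of a MYBL2 chromatin immunoprecipitation that lay at the start of a long non-coding RNA (lncRNA) gene and away from every protein-coding gene start. A peak was taken when its summit, the position of highest pileup, lay within 1000 bp of a transcription start site (TSS) of a GENCODE lncRNA gene and more than 5000 bp from every protein-coding TSS. The rule used position and annotation and no measured height. It selected 1370 of the 66954 deposited peaks (2.05%), which reached the TSSs of 1093 lncRNA genes on 23 chromosomes.

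lncRNAs are transcripts that do not encode a protein. They include scaffolds of nuclear bodies, antisense and imprinted transcripts, and host genes whose introns or exons are processed into microRNAs or small nucleolar RNAs (snoRNAs). Many lncRNA TSSs lie beside a coding TSS and share its promoter, and the distance rule sets those aside. MYBL2 (B-Myb) is a transcription factor of the MYB family that drives cell cycle genes, in part together with the MuvB complex at promoters holding CHR elements.

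The samples came from A673, an established Ewing sarcoma cell line that carries the EWSR1-FLI1 fusion, labelled wild type and given no treatment in the labels. There were 2 samples, 1 library immunoprecipitated with an antibody that the labels give as directed at MYBL2 and the study's methods as directed at its phosphorylated, activated form, and 1 input library made from sheared chromatin with no antibody step. Each group thus had 1 library from 1 cell line, so no test between conditions was possible and no value below has a replicate error.

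The measurement of each peak was the fold enrichment, a linear ratio in which the number of fragments piled up on the summit is divided by the background the peak caller expected there from the input. At lncRNA-only promoters 11 to 259 fragments covered the summit, with a median of 22, as worked out from the fold enrichment and p of each peak. Their median background was 4.13 fragments, beside 4.25 over all peaks. The lowest background, 3.45 fragments, was a floor shared by 23% of them and 20.3% of all peaks. At these peaks the divisor was the same value wherever the peak lay. Intervals are at 95%, exact Poisson for a pileup and its fold enrichment and exact Clopper-Pearson for a share. They cover counting error only and take the background as fixed.

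The sequences below show what lay under the strongest summits and under those with motif letters. Each is the GRCh37 (hg19) reference from 50 bp before to 50 bp after the summit, read 5′ to 3′ on the strand of the nearest lncRNA TSS, with the letters of every motif described further on in capitals. The 3 strongest peaks come first, of which the strongest was also the strongest outside CpG-rich sequence. The others are the strongest summits with a CHR element, an E2F site, an ETS core and an AP-1 site.
ENSG00000290122, chr1:17231789-17231889, plus strand, no motif letters: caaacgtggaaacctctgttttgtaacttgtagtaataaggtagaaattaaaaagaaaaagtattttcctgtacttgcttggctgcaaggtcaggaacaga
ENSG00000290039, chr17:56736510-56736610, minus strand, no motif letters: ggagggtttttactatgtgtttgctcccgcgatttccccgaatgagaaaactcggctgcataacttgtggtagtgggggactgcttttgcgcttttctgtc
ENSG00000272892, chr10:69609177-69609277, plus strand, MYB site: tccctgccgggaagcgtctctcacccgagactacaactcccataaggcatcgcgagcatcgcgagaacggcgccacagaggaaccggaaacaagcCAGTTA
ENSG00000267546, chr17:74553736-74553836, minus strand, CHR element: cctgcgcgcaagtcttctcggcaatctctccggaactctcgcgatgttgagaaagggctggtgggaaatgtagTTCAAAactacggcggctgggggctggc
LINC01775, chr19:2462987-2463087, minus strand, E2F site: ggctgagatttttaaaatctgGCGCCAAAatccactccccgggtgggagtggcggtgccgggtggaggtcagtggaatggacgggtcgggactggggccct
ZSCAN16-AS1, chr6:28104563-28104663, minus strand, ETS core and MYB site: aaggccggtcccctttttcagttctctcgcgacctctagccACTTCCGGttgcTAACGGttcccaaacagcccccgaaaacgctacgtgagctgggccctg
ENSG00000289869, chr4:127699647-127699747, minus strand, AP-1 site and CHR element: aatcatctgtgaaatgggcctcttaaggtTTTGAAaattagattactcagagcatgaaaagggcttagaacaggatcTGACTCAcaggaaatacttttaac

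To place these peaks by strength, their fold enrichment was set beside that of 19339 peaks with a summit within 1000 bp of a protein-coding TSS and of 30651 distal peaks, over 5000 bp from coding and over 1000 bp from lncRNA TSSs. lncRNA-only promoter peaks had a median fold enrichment of 4.23 (interval of the median 4.04 to 4.3) and ranged from 1.93 to 58.4. The median was 5.07 (4.94 to 5.15) at coding promoters, 3.56 (3.54 to 3.58) in distal peaks and 3.79 over all peaks. A fold enrichment of at least 5 was reached by 485 lncRNA-only promoter peaks (35.4%, interval 32.9 to 38%), beside 24.0% of all peaks, 50.3% (49.6 to 51%) of coding promoter peaks and 13.1% (12.7 to 13.5%) of distal peaks. The intervals of these shares did not overlap, and lncRNA-only promoters stood between coding promoters and distal peaks. A fold enrichment of at least 10 was found in 128 of them (9.34%, against 6.53% of all peaks, 19.3% at coding promoters and 1.04% of distal peaks). Among the strongest 1% of all peaks, 23 were at lncRNA-only promoters. They were 1.68% of lncRNA-only promoter peaks, beside 3.12% of coding promoter peaks and 0.0587% of distal peaks in that top 1%. The median width of lncRNA-only promoter peaks was 380 bp, beside 508 bp at coding promoters and 283 bp in distal peaks. The background was at its floor in 23% of lncRNA-only promoter peaks, 32.2% of coding promoter peaks and 13% of distal peaks. The part of this in the differences of fold enrichment was not tested.

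**Figure D1:**
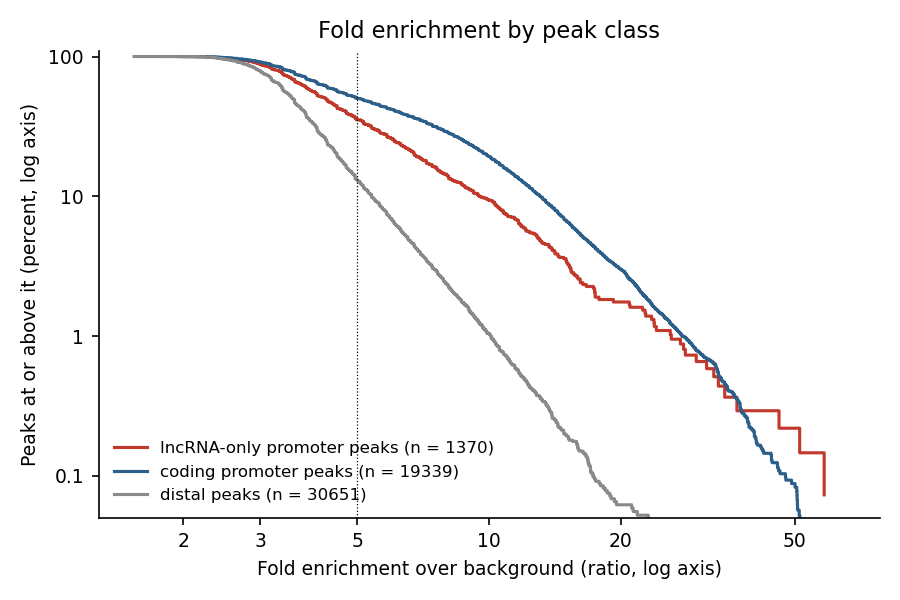
Percent of peaks at or above each fold enrichment, both on log axes, for lncRNA-only promoter peaks (red, n = 1370), coding promoter peaks (blue, n = 19339) and distal peaks (grey, n = 30651); the dotted line marks a fold enrichment of 5. At that line the red curve is at 35.4%, between 50.3% for coding promoters and 13.1% for distal peaks.

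Summits crowded at the TSS within the window that the rule allowed. Of the 1370 summits, 416 (30.4%, interval 27.9 to 32.9%) lay within 100 bp of the nearest lncRNA TSS and 256 within 50 bp. Outside 5000 bp of coding TSSs, the genome held 95.9 summits per Mb (interval 86.9 to 106) within 100 bp of a lncRNA TSS and 46.7 per Mb (40.1 to 54.1) from 101 to 200 bp. The density was 23.6 per Mb (21.3 to 26) from 501 to 1000 bp and 16.8 per Mb (16.2 to 17.5) from 5001 to 10000 bp, so the innermost ring was 5.71 times as dense as the outermost ring and the 501 to 1000 bp ring 1.4 times as dense. Upstream and downstream positions were about equally common, with 675 summits upstream of the TSS, 691 downstream and 4 at its exact base.

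The strength of the peaks fell over the same distance. The median fold enrichment was 5.04 (4.69 to 5.59) within 100 bp, 4.49 (4.01 to 5.17) from 101 to 200 bp, 4.08 (3.96 to 4.29) from 201 to 500 bp and 3.71 (3.59 to 3.87) from 501 to 1000 bp. Beyond the window it was 3.73 (3.6 to 3.82) from 1001 to 2000 bp, so the 395 outermost summits of the window had a median within the interval of summits just outside it. Peaks next to the limit were of ordinary height. The farthest summit taken lay 1000 bp from the TSS of ENSG00000278869 with a fold enrichment of 4.49, and the nearest summits left out lay 1001 bp from the TSSs of ENSG00000287857 and ENSG00000259584 with values of 2.82 and 3.59. At the coding limit, the peak at LINC01569, 5040 bp from the TSS of TFAP4, reached 13.7 and was taken, while a peak 4996 bp from a coding TSS beside ENSG00000272911 reached 6.29 and was not.

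**Figure D2:**
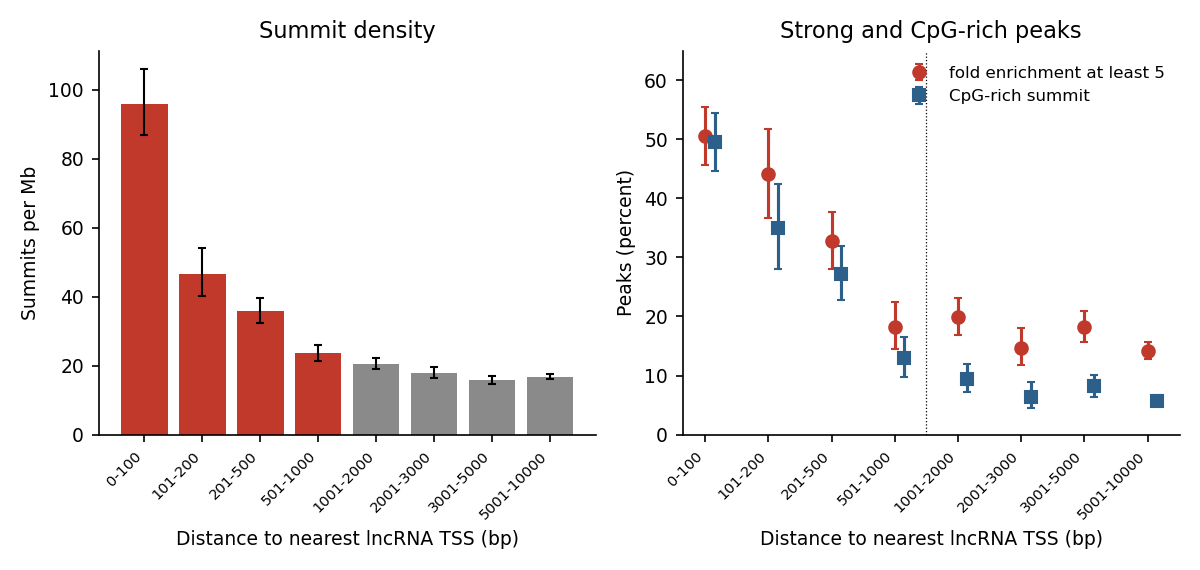
Left, summits per Mb of genome by distance to the nearest lncRNA TSS in bp, over 5000 bp from coding TSSs, with 95% Poisson intervals; red bars are inside the 1000 bp window. Right, percent of those peaks that reach a fold enrichment of 5 (red) and with a CpG-rich summit (blue), with 95% binomial intervals. Density falls from 95.9 to 16.8 per Mb, the strong share from 50.5% to 14.2% and the CpG-rich share from 49.5% to 5.66%.

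The 12 strongest peaks reached fold enrichments of 27.4 to 58.4, and 9 of them were nearest to a lncRNA known only by its identifier. The strongest, at chr1:17230749-17232365, had 259 fragments over a background of 3.45, a fold enrichment of 58.4 (51.5 to 65.9), and ranked 3 among all 66954 peaks. Its summit lay 145 bp downstream of the TSS of ENSG00000290122, in an exon of that lncRNA and in an intron of CROCC, which encodes a component of the ciliary rootlet, on the same strand. The second, at chr17:56736023-56737097, reached 51.3 (45 to 58.4). It lay 107 bp downstream of the TSS of ENSG00000290039, within an intron of TEX14, and 106 bp from the annotated start of RNU1-60P, a U1 small nuclear RNA (snRNA) pseudogene. The third, at chr10:69609064-69609994, reached 46.1 (40.0 to 52.8), 56 bp upstream of ENSG00000272892 and 11281 bp from the nearest coding TSS, that of DNAJC12. Peaks at ENSG00000289482 (36.9, interval 32.1 to 42.2) and ENSG00000270066 (34.6, 29.4 to 40.5) followed. The intervals of the first 3 peaks overlapped in neighbouring pairs, so their order is not firm at this depth.

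lncRNA genes with a name in reach of the 12 summits were SNHG16, SNHG32, MALAT1, OLMALINC and LINC01719. The last shared the peak at ENSG00000287190 (32.7), on the other strand. The peak at chr17:74553135-74554830 (33.5, interval 29.3 to 38.1) lay between SNHG16, a snoRNA host gene, and ENSG00000267546 on the other strand, 23 bp and 21 bp from their TSSs. SNHG32, which carries snoRNAs of the SNORD48 locus, had 31.5 (26.5 to 37.1). MALAT1, an abundant nuclear speckle RNA, had 28.1 (24.6 to 32) in a peak 12003 bp wide, with the summit 2 bp from an annotated TSS. OLMALINC had 27.9 (23.2 to 33.2). At the other end, the weakest peaks reached 1.93 at ENSG00000270072, 2.04 at ENSG00000224417 and 2.05 in a PVT1 intron. Their backgrounds of 14, 10.3 and 11.2 fragments were above the median of 4.13, and their pileups were 28, 22 and 24 fragments.

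Some of the peaks lay beside genes that are neither lncRNAs nor protein-coding. Another gene type had a TSS within 1000 bp of 94 summits (6.86%), and these peaks had a median fold enrichment of 6.07 (4.72 to 6.74) beside 4.14 (4.04 to 4.27) for the other 1276. The nearest such gene was an snRNA at 12 summits, with a median of 8.91 (3.88 to 29.8), and all 12 were in CpG-rich sequence. Among the 12 strongest, 3 lay beside snRNA genes. These were RNU1-60P, the U1 variant RNVU1-6 (32.7, beside ENSG00000287190) and RNU5E-1, which encodes a U5 RNA of the spliceosome (29.8, 8 bp from the summit, with ENSG00000285646 3 bp away). Whether the signal at these summits belongs to the lncRNA or to the snRNA cannot be told apart from their positions. A snoRNA gene was the nearest at another 12 summits, with a median of 5.47 (3.79 to 11.1), a microRNA gene at 23, with 3.82 (3.35 to 7.19), and a miscellaneous RNA gene at 8, with 3.84 (2.86 to 9.16). The largest class was the remaining gene types, at 39 summits with a median of 6.74 (4.94 to 7.19). snRNA genes come in near-identical copies, and reads of such copies cannot be placed with certainty. At the snRNA summits among the 12 strongest, 0%, 0% and 14.1% of the 31-base words within 50 bp of the summit occurred more than once in the genome. The annotated starts of RNU1-60P and RNVU1-6 lay 106 and 225 bp from the summit, outside this window. At another snRNA summit, beside RNVU1-14 at chr1:148242001-148242200 (fold enrichment 6.07), 100% of the words were repeated. The placing of reads at snRNA genes is thus not settled. More than 50% of the words were repeated at 10 of 1370 summits (0.73%, beside 0.996% of all peaks) and at 0 of the 12 strongest.

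To compare lncRNA genes of known roles, 93 well-known lncRNAs were looked up in 3 lists. An lncRNA-only promoter peak was found for 42 of them. Of the others, 19 had a summit within 1000 bp of a TSS but with a coding TSS within 5000 bp. No such summit was found for 26, of which 23 had a TSS over 5000 bp from coding TSSs. The remaining 6 were not found under their name among the lncRNA genes of the annotation. Over all lncRNA genes with a TSS over 5000 bp from coding TSSs, 8.52% had a summit within 1000 bp of such a TSS. With a fold enrichment of 5 or more the share was 4.06%. These shares count summits of all deposited peaks, not of lncRNA-only promoter peaks alone. The 42 of 93 have another base, since the 93 hold genes set aside by the coding distance or not found. The lists were also chosen with earlier results of these data known, so the contrast with 8.52% is not a result. The strongest peak of the 42 genes had a median fold enrichment of 9.68, ranged from 3.14 to 33.5, and reached at least 5 in 32 genes. Since the strongest peak of a gene is a maximum, this median cannot be read against that of all members.

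In the list called nuclear and architectural, 9 of 16 lncRNAs had a peak, and all 9 reached a fold enrichment of 5. That name does not describe every gene on the list, such as NORAD and PVT1 (10.5, interval 7.94 to 13.6). DLEU1 and DLEU2 were counted separately although they shared 1 peak. MALAT1 led. NEAT1, the scaffold of paraspeckles and the neighbour of MALAT1 on chromosome 11, had 26 (21.9 to 30.5) in a peak at chr11:65188726-65198900. NORAD, which binds Pumilio proteins, had 13 (9.92 to 16.8) and KCNQ1OT1, an imprinted antisense RNA, 11.5 (8.67 to 15.1). LINC-PINT shared a peak of 8.39 (6.28 to 11) with LINC00513 on the other strand, whose TSS was the nearer, 38 bp from the summit against 160 bp. DLEU2, whose introns hold miR-15a and miR-16-1, and DLEU1 shared 1 peak of 8.09 (5.7 to 11.2). MEG3, an imprinted maternally expressed RNA, had 5.39 (3.5 to 7.98), an interval that reached below 5. H19, MIAT and FIRRE had a TSS far enough from coding genes but no summit near it. The coding distance set aside 2 further genes of this list with a summit, OIP5-AS1 (23.2) and SOX2-OT (19).

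Among lncRNAs of growth and cancer, 12 of 38 had a peak and 6 of these reached 5. EWSAT1, a lncRNA induced by EWSR1-FLI1 in Ewing sarcoma, had 2 peaks, the stronger at chr15:69366311-69367489 with 8.85 (6.41 to 11.9). LINC00963 had 14.4 (11.2 to 18.2), DANCR 12.1 (9.14 to 15.8) and EPB41L4A-AS1 11.1 (8.69 to 13.9). LINC01116 shared a peak of 8.19 (5.93 to 11) with LINC01117, whose TSS lay 1 bp from the summit against 34 bp for LINC01116. LINC00461 had 7.64 (5.33 to 10.6). The peaks of LINC00511 (4.46), PCAT1 (4.35), CASC15 (4.04), HULC (3.53), LUCAT1 (3.45) and RMST (3.18) stayed under 5. The coding distance set aside 11 further genes of this list with a summit, among them GAS5, ZFAS1, CRNDE, HOTAIR and TERC.

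Among host genes of small RNAs, 21 of 39 had a peak and 17 of these reached 5. Among the listed snoRNA hosts with such a peak, SNHG16 was followed by SNHG12 with 26.1 (22.2 to 30.6), SNHG8 with 24.1 (20.0 to 29), SNHG7 with 23.8 (19.6 to 28.8) and SNHG25 with 22.5 (19.4 to 25.9). The intervals of these last 4 genes overlapped. SNHG17 had 17.8 (14.5 to 21.7), SNHG6 14.2 (10.9 to 18.1) and SNHG15 12.7 (10.2 to 15.7). Among microRNA hosts, MIR17HG, the precursor of the miR-17-92 cluster, had 17.5 (14 to 21.6) at chr13:91998565-92000379. MIRLET7A1HG, a let-7 host, had 15.6 (12.3 to 19.5), MIR181A2HG 15 (12.2 to 18.3) and MIR23AHG, the host of miR-23a, 14.2 (10.9 to 18.1). MIR181A1HG had 10.9 (8.68 to 13.5) in the widest peak at a lncRNA-only promoter, 14510 bp. MIRLET7BHG and MIR210HG had 7.19 each, MIR9-1HG 6.46 and MIR193BHG 5.84. MIR646HG (4.69), MIR222HG (4.34), MIR100HG (4.29) and MIR29B2CHG (3.14) were under 5. In the eligible part of the list 11 hosts had no summit, among them MIR155HG, MIR31HG, MIR137HG and SNHG14. The coding distance set aside 6 further hosts with a summit, from MIR4500HG (2.88) to SNHG1 (35.1). SNHG5 (32.3), SNHG29 (23.2) and SNHG3 (22.1) were among them.

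**Figure D3:**
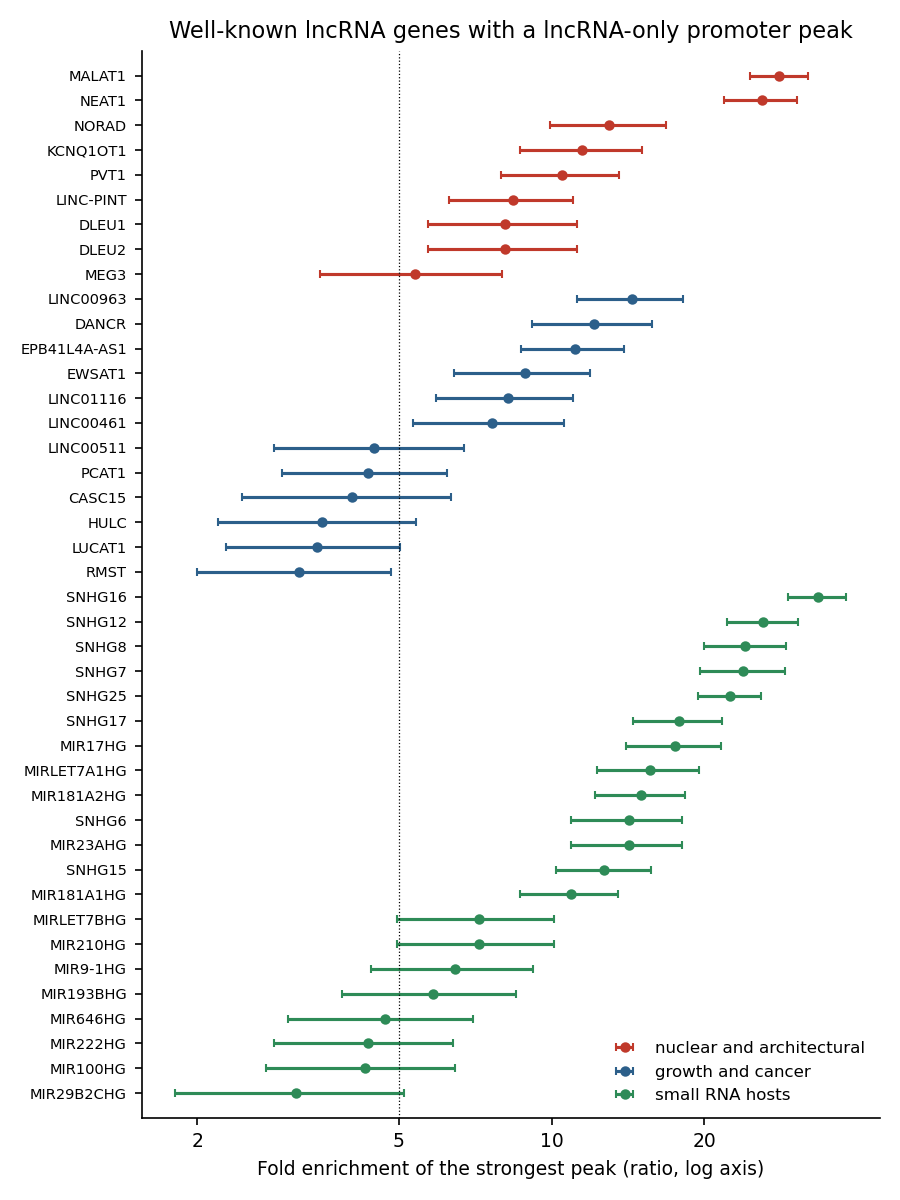
Fold enrichment (log axis) of the strongest lncRNA-only promoter peak of 42 well-known lncRNA genes with 95% Poisson intervals, coloured by list; the dotted line marks 5. The values run from 3.14 at MIR29B2CHG to 33.5 at SNHG16, and 32 of the 42 genes lie to the right of the line.

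Grouped by name, 729 of the 1370 peaks (53.2%) were nearest to a lncRNA known by an identifier or clone name, with a median fold enrichment of 4.04 (3.94 to 4.27). The 282 peaks at LINC genes had a median of 4.46 (4.24 to 4.77), the 129 at genes with an antisense name 4.07 (3.79 to 4.35), the 42 at microRNA hosts 4.27 (3.53 to 5.84) and the 26 at SNHG genes 6.26 (3.79 to 14.2). The intervals of these groups overlapped with at least 1 other group. Within the antisense names TMEM44-AS1 led with 22.7, followed by ZSCAN16-AS1 with 16.7 and PCGF3-AS1 with 16.2. LINC01775 (22.8), LINC02732 (15.4) and LINC01970 (15.2) led the LINC genes, and MIR762HG (20.9) led the microRNA hosts. The lncRNA genes were also looked up in RefSeq by identifier or symbol. Of 1093 genes, 418 were lncRNAs there (38.2%), 25 were transcribed pseudogenes and 650 were not matched. Peaks nearest to matched lncRNAs had a median of 4.27 and those nearest to unmatched genes 4.06.

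Some genes carried many of these peaks. Of the 1093 genes, 816 had 1 peak, 277 had 2 or more and 58 had 3 or more. PVT1, the lncRNA gene next to MYC, had the most, 24 peaks along 254 kb, with fold enrichments of 2.05 to 10.5 and a median of 3.43. Only 3 of the 24 reached 5, and 1 was in CpG-rich sequence. Their background, 3.89 to 11.2 fragments with a median of 5.29, was above the median of all peaks. XIST, the RNA that coats the inactive X chromosome, had 12 peaks. SNHG17 followed with 11 along 14.1 kb, of which 2 reached 5, and LINC00963 had 10 along 18.8 kb, of which 5 reached 5. PVT1 has 132 annotated TSS positions, XIST 29, SNHG17 61 and LINC00963 55. MIR100HG, with 87 positions, had 7 peaks, and LINC00511, with 84, had 5. Each TSS position offers a window for a summit, and the part of the number of windows in these counts was not tested.

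Seen from the genes, 12845 lncRNA genes had at least 1 TSS over 5000 bp from coding TSSs, and 1094 of them (8.52%, interval 8.04 to 9.01%) had a summit within 1000 bp of such a TSS. Of the 5747 lncRNA genes whose every TSS lay within 5000 bp of a coding TSS, 2545 (44.3%, interval 43 to 45.6%) had one. Among the 20098 protein-coding genes 58.6% did. The lncRNA-only share differed by CpG content. At canonical TSSs in CpG-rich sequence (an observed over expected CpG ratio of at least 0.6 within 150 bp), 390 of 1529 eligible lncRNA genes had a summit (25.5%, interval 23.3 to 27.8%). At CpG-poor canonical TSSs 530 of 10779 did (4.92%, interval 4.52 to 5.34%). Among coding genes the corresponding shares were 74.1% and 13.4%, so within either CpG class lncRNA-only promoters had a summit less often than coding promoters, with intervals that did not overlap.

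The same feature ordered the peaks by strength. A CpG-rich summit was found in 423 lncRNA-only promoter peaks (30.9%, interval 28.4 to 33.4%), beside 59.7% at coding promoters and 3.53% of distal peaks. The CpG-rich peaks had a median fold enrichment of 6.07 (5.71 to 6.63) and a median width of 591 bp, and 65.7% (61 to 70.2%) reached 5. The 947 CpG-poor peaks had a median of 3.8 (3.71 to 3.89) and 324 bp, and 21.9% (19.3 to 24.6%) reached 5. CpG-rich peaks at coding promoters had a median of 7.41 (7.4 to 7.57) and distal ones 4.27 (4.16 to 4.42), so CpG-rich lncRNA-only peaks again lay in between. Among CpG-poor peaks the order differed. The median at coding promoters was 3.64 (3.59 to 3.68) and 16.1% (15.3 to 17%) reached 5, both below the values of lncRNA-only promoters with intervals that did not overlap. CpG-poor distal peaks had 3.53 (3.53 to 3.55), and 12.3% reached 5. Across the 1370 peaks the rank correlation of fold enrichment was 0.442 with the CpG ratio, 0.63 with peak width and -0.302 with the distance to the TSS. The points share 1 library, and neighbouring peaks are not independent.

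CpG content and distance were related to strength side by side. Within 100 bp of the TSS the median was 7.04 (6.37 to 8.09) for 206 CpG-rich peaks and 4.03 (3.8 to 4.24) for 210 CpG-poor peaks. From 101 to 1000 bp it was 5.61 (5.17 to 6) for 217 CpG-rich and 3.72 (3.62 to 3.83) for 737 CpG-poor peaks. The intervals of these medians at the 2 distances did not overlap for CpG-rich peaks and overlapped for CpG-poor peaks. The share that reached 5 gave the other pattern. In CpG-poor peaks it was 30.5% (24.3 to 37.2%) within 100 bp and 19.4% (16.6 to 22.4%) beyond, without overlap. In CpG-rich peaks it was 70.9% (64.2 to 77%) and 60.8% (54 to 67.4%), with overlap. At either distance the CpG classes did not overlap. Of the 137 strongest peaks 113 were CpG-rich and 86 lay within 100 bp of the TSS. The strongest peaks in CpG-poor sequence were those at ENSG00000290122, OLMALINC (CpG ratio 0.581, just under the limit), ENSG00000251448 (23.5), LINC02732 and MIR181A2HG. These 5 were chosen after their values were seen.

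**Figure D4:**
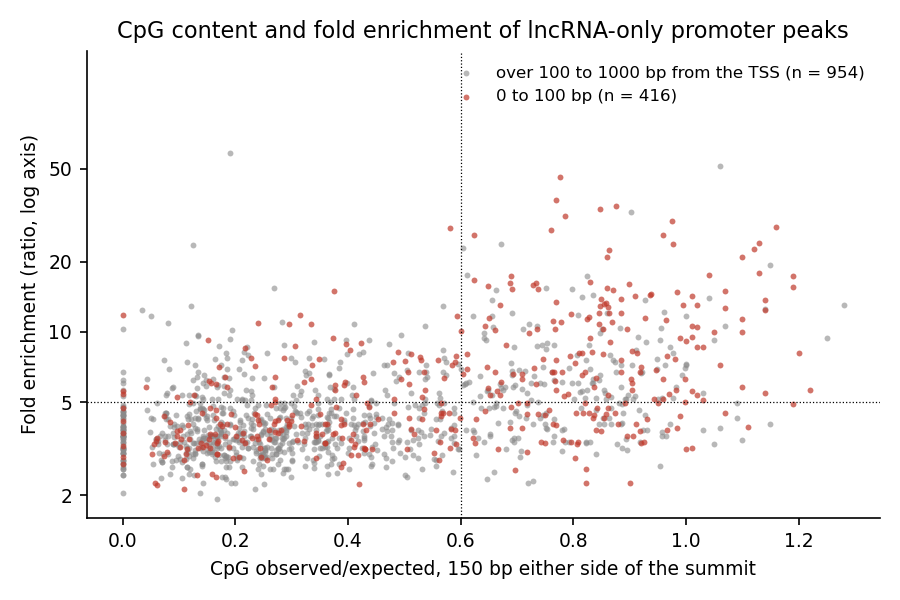
Fold enrichment (log axis) against the CpG observed over expected ratio for the 1370 lncRNA-only promoter peaks, red within 100 bp of the lncRNA TSS (n = 416) and grey from 101 to 1000 bp (n = 954); dotted lines mark 0.6 and 5. Of the peaks right of 0.6, 65.7% lie above 5, and of those left of it 21.9%, with the strongest peak of all (58.4) on the left at a ratio of 0.19.

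The position in the genome also went with strength. Most summits, 1053 (76.9%), lay outside protein-coding genes, with a median of 4.41 (4.27 to 4.52). The 262 in coding introns had 3.73 (3.59 to 3.85) and the 55 in coding exons 3.53 (3.36 to 4.04). In coding genes, 226 summits belonged to a lncRNA on the opposite strand (median 3.77) and 78 to one on the same strand (median 3.5). By lncRNA feature, 524 summits lay in a lncRNA exon (median 4.52), 455 in an intron (4.18) and 391 outside the lncRNA body (3.9). The share of CpG-rich summits moved with these groups, 36.5% outside coding genes and 13.7% in coding introns, and its part in the difference was not tested. The distance to the nearest coding TSS had a median of 30013 bp and reached 2184773 bp. Medians were 4.24 at 5 to 10 kb, 4.14 at 10 to 50 kb, 4.38 at 50 to 100 kb and 4.07 beyond 100 kb, with overlapping intervals, so the height of the peaks showed no detectable order with that distance.

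A pair of lncRNA genes on opposite strands had TSSs within 1000 bp of 118 summits. These peaks had a median fold enrichment of 6.07 (5.39 to 6.74), 64.4% (55.1 to 73%) reached 5 and 69.5% were CpG-rich. The 1240 peaks with a single lncRNA gene in reach had 4.07 (4.02 to 4.25), 32.6% (30.0 to 35.3%) and 26.9%. Examples were the pairs at SNHG16, MALAT1 with ENSG00000270117, OLMALINC with ENSG00000289301, and ENSG00000271780 with ENSG00000289482. Peaks at the canonical TSS of a gene (771, median 4.13) and at its other TSSs (599, median 4.29) had overlapping intervals.

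Wide peaks were few and strong. Of the 1370 peaks, 27 were over 3000 bp wide, their median fold enrichment was 11.8 (8.39 to 15.6), and all 27 reached 5. The widest were those of MIR181A1HG (14510 bp), ENSG00000260060 (14351 bp, fold enrichment 9.21) and MALAT1 (12003 bp). The 836 peaks of 500 bp or less had a median of 3.6 (3.59 to 3.71), and 14% of them reached 5. The edge of 28 peaks came within 5000 bp of a coding TSS although the summit did not, and that of 2 peaks came within 1000 bp.

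Motif letters were sought on both strands in the 101 bp around each summit and in windows of the same length centred 500 bp to either side. A MYB site was CAACTG, alternatively CAACGG, alternatively TAACTG, alternatively TAACGG. The CHR element was TTTGAA, alternatively TTCGAA, and the CCAAT box CCAAT. An E2F site was TTTCGCGC, TTTGGCGC, TTTCCCGC or TTTGCCGC, an ETS core CCGGAAGT, an SP site GGGCGG and an AP-1 site TGACTCA or TGAGTCA. An SP site can run into an E2F site, since both may share a GCGG. A match is a run of letters and not a measured binding site.

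MYB sites were found at 154 summits (11.2%, interval 9.62 to 13%) and in 9.71% (8.62 to 10.9%) of flanking windows, a ratio of 1.16 with overlapping intervals. Over all peaks the share at summits was 10.4%. The peak at ENSG00000272892, printed above, was the strongest with such letters. Peaks with a MYB site had a median fold enrichment of 3.85 and those without 4.27. The order was not the same at either distance. Within 100 bp of the TSS the medians were 5.96 with a MYB site and 4.94 without. From over 100 to 1000 bp they were 3.59 and 4.04. In CpG-rich peaks they were 6 and 6.07, and in CpG-poor peaks 3.59 and 3.82. These medians have no intervals, so no difference in strength is read from them. CHR letters were rarer at summits, 7.08% (5.78 to 8.57%), than in the flanks, 10.3% (9.14 to 11.5%), and the intervals did not overlap. At coding promoters they were also rarer at summits, 6.06% (5.72 to 6.4%) against 6.77% (6.52 to 7.02%), and in distal peaks the shares were 11.8% and 11.1%. CHR letters are poor in G and C, and 3.78% of CpG-rich summits held them beside 8.55% of CpG-poor ones. The part of base composition in the lower share at summits was not tested. The CCAAT box was at 11.8% of summits and of flanks alike.

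ETS cores had the largest ratio of summits to flanks, 10, but rested on 15 summits (1.09%, interval 0.614 to 1.8%) and 3 of 2740 flanking windows (0.109%, interval 0.0226 to 0.32%). The ratio was 8.37 at coding promoters and 4 in distal peaks, and over all peaks 0.705% of summits held the letters. Peaks with an ETS core had a median fold enrichment of 6.74, and ZSCAN16-AS1, printed above, was the strongest of them. E2F sites were at 17 summits (1.24%, interval 0.724 to 1.98%) and 0.511% of flanks (0.28 to 0.856%), intervals that overlapped, with 0.521% over all peaks, and LINC01775 was the strongest. SP sites were at 148 summits (10.8%, interval 9.21 to 12.6%) and 6.75% of flanks (5.84 to 7.76%), beside 20.7% of coding promoter and 1.82% of distal summits. They were at 25.8% of CpG-rich and 4.12% of CpG-poor summits of lncRNA-only promoters. ETS cores were at 2.36% and 0.528% of these summits, and E2F sites at 2.6% and 0.634%. The flanks were not matched for base composition, and its part in the ratios of these 3 motifs was not tested. AP-1 sites were at 2.41% of summits and 2.08% of flanks, with overlapping intervals.

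**Figure D5:**
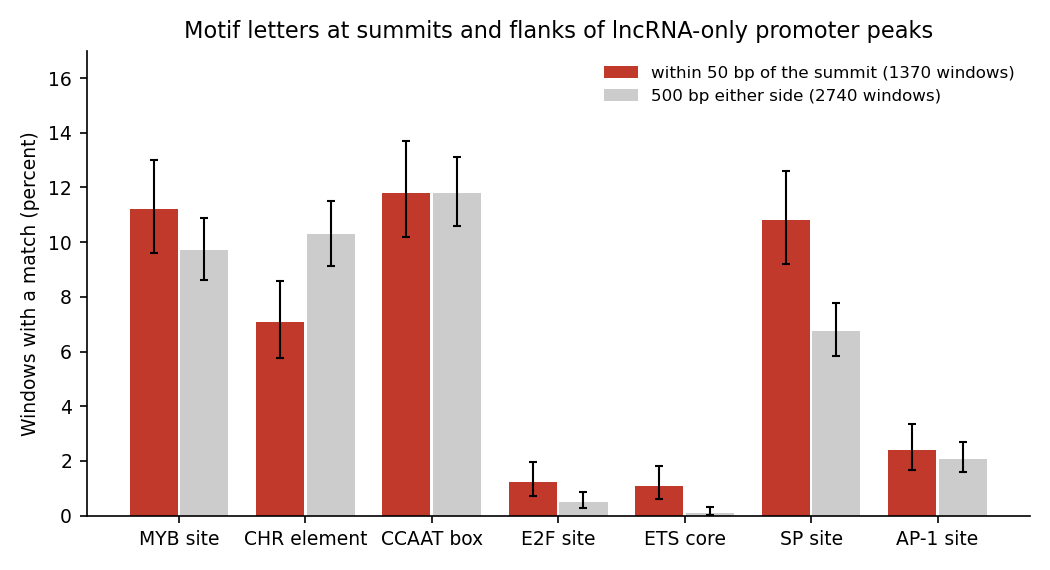
Percent of windows holding each motif's letters at the 1370 summits of lncRNA-only promoter peaks (red) and in 2740 windows centred 500 bp to either side (grey), with 95% binomial intervals. SP, E2F and ETS letters are more frequent at summits (10.8% against 6.75%, 1.24% against 0.511% and 1.09% against 0.109%), with overlapping intervals for E2F, and CHR letters less frequent (7.08% against 10.3%). The part of base composition in these differences was not tested.

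EWSR1-FLI1 binds tandem GGAA repeats, so runs of this unit were counted too. At least 4 tandem units were within 50 bp of 0 of 1370 summits, which allows a share of up to 0.269% by the exact binomial interval. Over all peaks 25 summits did (0.0373%), so the 0 is no result about lncRNA-only promoters. Anywhere inside the peak, 5 lncRNA-only promoter peaks (0.365%) held a run of 4 or more units, beside 0.417% of all peaks. They were at LINC02458 (12 units), ENSG00000251448 (10), ENSG00000227579 (9), DLGAP1-AS5 (7) and LINC02376 (4). Their fold enrichments were 4.18, 23.5, 10.2, 3.94 and 5.88. The run at ENSG00000251448, the strongest of the 5, is shown with 30 bases on either side because its peak, chr3:126004063-126010232, was also among the strongest in CpG-poor sequence. It was chosen after the values were seen. The centre of the run lay 1156 bp from the summit and 209 bp from the TSS. The capitals mark only the longest unbroken run of GGAA units in the reference. Further GGAA letters follow it in lower case, broken by other bases, and the stretch shown ends among them. The length of the run in A673 was not analysed here.
ENSG00000251448, chr3:126009322-126009421, minus strand: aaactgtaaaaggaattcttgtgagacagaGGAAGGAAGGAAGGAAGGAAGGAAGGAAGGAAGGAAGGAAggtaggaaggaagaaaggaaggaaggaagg

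lncRNA-only promoter peaks were found on all 23 chromosomes of the list. They made up 1.15% of the peaks of chromosome 19, the lowest share, and 3.18% of those of chromosome 21, the highest. Chromosome 17 had the highest number per Mb, 0.837, and chromosome 13 the lowest, 0.243. Median fold enrichments per chromosome ran from 3.46 on chromosome 21 to 4.84 on chromosomes 2 and 19.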

How the data were processed

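ChIP-seq and input libraries of A673 cells were sequenced as 100 bp single-end reads. Per the study's methods and the submitters' processing notes, the authors aligned reads to hg19 with Bowtie2 (2.1.10) and called narrow peaks with MACS2 (2.0.10) against the input. Every deposited line holds a peak with the authors' fold enrichment (a linear ratio), −log10 p, −log10 q, a score and the summit offset. The authors filtered reads by mapping quality and called peaks under a q limit. What any later cleaning of the list removed is not given in the sources used here. The score was not used here.

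Summits were placed on GRCh37, which has the hg19 coordinates (0 peaks lay beyond a chromosome end), with GENCODE 44 lifted to that build, using every transcript's TSS of genes typed lncRNA (18592) or protein-coding (20098) on chromosomes 1 to 22 and X. Positions count from 1. Pileup and background were recovered from the deposited fold enrichment, (pileup + 1) / (background + 1), and the Poisson p, to within 3.49e-05 of the deposited −log10 p. CpG content was measured within 150 bp of the summit and motifs within 50 bp. RefSeq names and gene types came from a GRCh38 table, without coordinates. The members, the lists of 93 lncRNAs and the descriptions were chosen with earlier results of these data known. Peaks are not replicates and there was 1 library per group, so no test was made and classes are described by medians, shares and intervals. The procedures for membership, pileups and motifs were checked on simulated data.

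Named peaks were the 12 strongest, 3 weakest, 3 widest, the strongest of each listed lncRNA and the 3 strongest of each name class, the 3 genes with most peaks and those next to the 1000 and 5000 bp limits. Alternatives were TSS windows of 500 and 2000 bp, 10000 bp from coding TSSs, outermost or canonical TSSs only, no other gene type's TSS within 1000 bp, a lower limit of 5 on −log10 q or on the fold enrichment, motif windows of 100 bp and, added after seeing the data, older GENCODE lncRNA types. Python 3.11.15, numpy 2.4.6, pandas 2.3.3, scipy 1.17.1, pysam 0.24.0 and matplotlib 3.10.9 were used.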

Additional observations from a re-analysis of the deposited data

How the results depend on the processing

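No paired analysis was possible because ChIP and input had 1 library each, and no replicate could be left out. Counting error and the absence of replicates limit every value, and the TSS window and annotation set which peaks are members. The number of peaks (1370) was 975 with a 500 bp window and 2012 with a 2000 bp window, and fell to 890 with a −log10 q of at least 5 and to 485 with a fold enrichment of at least 5. The median fold enrichment (4.23) was 4.49 with a 500 bp window, 4.35 with outermost or with canonical TSSs only and 5.27 with the q limit. The share with a fold enrichment of at least 5 (35.4%) was 42.4% at 500 bp, 30.5% at 2000 bp, 38.6% with outermost TSSs, 38.7% with canonical TSSs and 54.5% with the q limit. The share within 100 bp of the TSS (30.4%) was 42.7%, 20.7%, 25%, 25.6% and 35.4% under these 5 settings in that order, and 43.3% with a fold enrichment of at least 5. The CpG-rich share (30.9%) was 38.2%, 24%, 35.6%, 35.8% and 41.1% under the same 5, 57.3% with a fold enrichment of at least 5 and 28.4% without peaks near TSSs of other gene types. The share of eligible genes with a peak (8.52%) was 6.71%, 10.6%, 7.5%, 7.47% and 6.41% under the same 5, 4.06% with a fold enrichment of at least 5 and 7.78% with a coding distance of 10000 bp. Among the ratios of summits to flanks, that of the CHR element (0.69) was 0.528 with the q limit and 0.538 with a fold enrichment of at least 5, and the latter gave 22 for the ETS core (10) and 1.87 for the SP site (1.6). A window of 500 or 2000 bp moves the share within 100 bp by its own construction, as the fold limit does the number of peaks, and the cause of the other moves was not tested. The AP-1 ratio, 1.16 with overlapping intervals, was 1.5 with motif windows of 100 bp and 1.38 with the q limit. On the other side of 1, it was 0.824 with a fold enrichment of at least 5. The interval of the 1.5, 1.19 to 1.87, takes the flank share as fixed. It leaves out the counting error of the flanks, so it does not place the ratio above 1. The ratios of MYB, CHR, E2F, ETS and SP letters stayed on their side of 1. Even with the flank share taken as fixed, the interval of the MYB ratio held 1 in every setting (0.991 to 1.34 as reported). That of the E2F ratio held 1 with a fold enrichment of at least 5 (0.77 to 3.47).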
